A study of Rattus norvegicus with 8 samples.

Results

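Astrocytes are the glial cells that ensheath synapses and blood vessels in the hippocampus, and 7 genes that are widely used to follow them were examined here in aged rats given a vector for insulin-like growth factor I (IGF-I). The 7 were taken by name, by a rule that uses no measured value: Gfap (ENSRNOG00000002919), Vim (ENSRNOG00000018087), Aqp4 (ENSRNOG00000016043), S100b (ENSRNOG00000001295), Slc1a2 (ENSRNOG00000005479), Slc1a3 (ENSRNOG00000016163) and Glul (ENSRNOG00000049560), each 1 row of the 26405 gene rows in the count table. The members were, however, proposed with earlier results of these data known. All 7 were among the 14522 rows with enough reads to be tested. Libraries came from the right hippocampus of 8 female Sprague-Dawley rats aged 28 months, each given an adenoviral vector by injection into the cerebral ventricles. For the IGF1 group (4 rats) the vector expressed rat IGF-I. In the DsRed group (4 rats) it was the placebo vector, which the labels call empty and name for DsRed, a red fluorescent protein. All 8 rats therefore carried an adenoviral vector, and no uninjected or young rats were part of the comparison. The promoter of the vectors, the cells they reached and the time from injection to dissection are not given in the labels. Since every library is a separate animal, the replicate error below is that between rats.

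The 7 genes cover several tasks of the astrocyte. Gfap and Vim encode intermediate filament proteins of the astrocyte skeleton, and a rise in Gfap is the usual sign of a reactive astrocyte. Aqp4 encodes the water channel that is concentrated in the end-feet on blood vessels, and S100b encodes a calcium-binding protein that astrocytes also release. Slc1a2 (GLT-1) and Slc1a3 (GLAST) encode the transporters that clear glutamate from the synaptic space. Glul encodes glutamine synthetase, which turns the glutamate that was taken up into glutamine for return to neurons. Vim is also expressed by endothelial, ependymal and meningeal cells, and S100b by part of the oligodendrocyte lineage. In whole tissue, fewer astrocytes, less RNA per astrocyte and RNA from other cells cannot be told apart.

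Reads assigned to genes numbered between 16347636 and 27377086 per library. The members were well covered, with 1132 to 2481 reads per library for Vim and 7469 to 48994 for the other 6 genes. Levels are given as CPM, read counts scaled to library size with the TMM (trimmed mean of M values) factors of edgeR, and are not divided by gene length, so they are compared between rats and not between genes. IGF1 replicate 1 and DsRed replicate 1 stood apart from the other libraries over all genes, the former on the first principal component (31.6% of the variance) with a score of 42.0 against -16.0 to 2.89, the latter on the second (20.9%) with 31.5 against -16.9 to 6.87. The transcript of Igf1, the target of the vector, and defining markers of other cell types are known here by symbol only and were not analysed. Results that rest on the libraries numbered 1 are given with and without them.

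No member passed the test of the IGF1 against the DsRed group over all rows, and only Slc1a2 had groups that did not overlap. By the quasi-likelihood test of edgeR, Benjamini-Hochberg adjusted over all rows, 0 of the 7 passed a threshold of 0.05, where the share of all 14522 rows that passed was 0%. Before adjustment, 1 of the 7 had a p under 0.05, Slc1a2, as had 958 rows in all, or 6.60%. With 1 library left out these counts ran from 0 to 1 members and from 626 rows (without DsRed replicate 2) to 1439 (without IGF1 replicate 4). Slc1a2 was lower in the IGF1 group. Rows that were lower in IGF1 and also had an unadjusted p under 0.05 made up 3.05% of all rows. The unadjusted list held 820 rows with DESeq2, 738 with the likelihood ratio test of edgeR and 995 with limma voom, and Slc1a2 was the only member in each. In a robust quasi-likelihood fit of edgeR the list held 937 rows and no member, with an unadjusted p of 0.0613 for Slc1a2. The fitted log2 fold changes (IGF1 against DsRed) were positive for 3 members and negative for 4, with a median of -0.013, against 0.0027 over all rows. Their median absolute size was 0.032, against 0.083 over all rows. The latter include rows with far fewer reads, and sizes were not compared among rows of similar level.

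**Figure D1:**
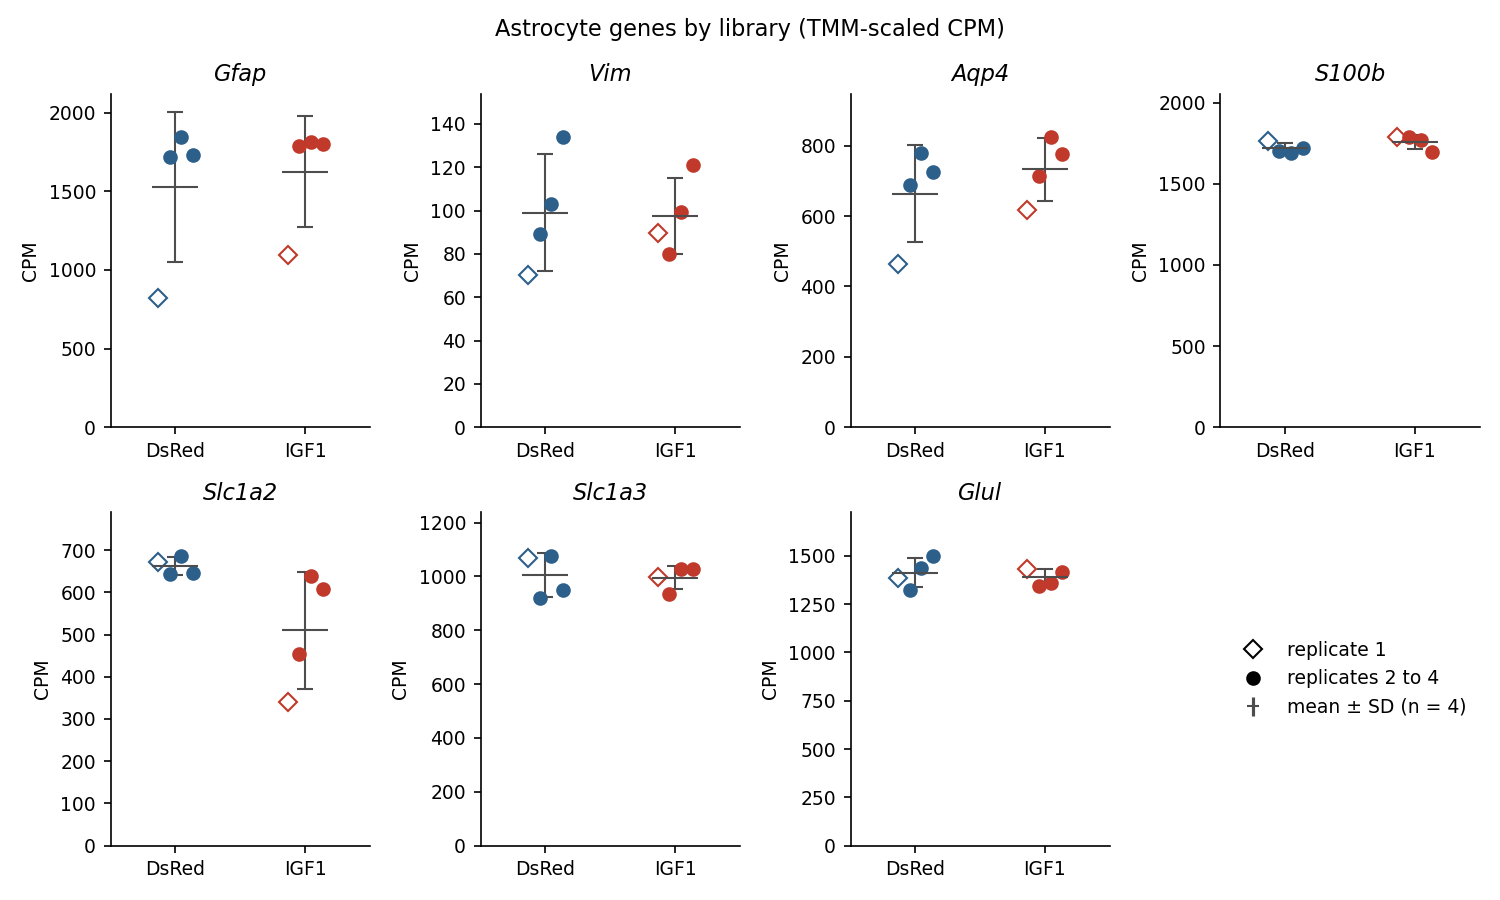
Level of each astrocyte gene in every library, as TMM-scaled CPM on axes that start at 0, for the DsRed and IGF1 groups. Points are rats, open diamonds are replicate 1 of each group, and bars give the mean ± SD (n = 4). Gfap is low in replicate 1 of both groups, at 1095 and 820.0 CPM, while S100b hardly varies and Slc1a2 is low in 2 of the IGF1 rats.

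The filament gene Gfap was low in 1 rat of each group and even in the other 6. In the IGF1 group it stood at 1095, 1785, 1813 and 1801 CPM in replicates 1 to 4. In the DsRed group it stood at 820.0, 1716, 1844 and 1728 CPM. Thus 3 rats of each group lay close together, between 1716 and 1844 CPM, and 1 rat of each group lay far below them. The group means were 1624 ± 352 CPM and 1527 ± 475 CPM (SD, n = 4 each). On the log2 scale IGF1 exceeded DsRed by 0.088 (SE 0.25, 95% interval -0.46 to 0.64, edgeR adjusted p 0.948). Its sign depended on which low rat was kept: it was 0.24 without IGF1 replicate 1 and -0.12 without DsRed replicate 1. With both left out, which was chosen after the values were seen, it was 0.029 with an interval of -0.095 to 0.15. As a ratio of IGF1 to DsRed, the interval over all 8 libraries was 0.725 to 1.56.

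Vim, the other filament gene, spread widely in both groups, and its extremes were mostly not those of Gfap. IGF1 replicates 1 to 4 had 89.5, 79.9, 99.2 and 121 CPM. DsRed replicates 1 to 4 had 70.3, 89.2, 103 and 134 CPM. The groups overlapped over nearly their whole range, with the lowest and the highest rat both in the DsRed group. Its log2 fold change was -0.025 (SE 0.19, 95% interval -0.44 to 0.39, edgeR adjusted p 0.983). The highest Vim level in each group was in replicate 4, a rat whose Gfap was not out of the ordinary.

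The water channel gene Aqp4 was low in the same 2 rats as Gfap. It stood at 618, 714, 825 and 778 CPM in IGF1 replicates 1 to 4. It stood at 464, 688, 779 and 725 CPM in DsRed replicates 1 to 4. The groups overlapped, and replicate 1 was the lowest rat of each. The difference on the log2 scale, 0.14, was smaller than its SE of 0.15 (95% interval -0.19 to 0.48, edgeR adjusted p 0.832). Without DsRed replicate 1 the value was 0.0055, and without both libraries numbered 1 it was 0.079.

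S100b was nearly constant across the 8 rats. Its levels were 1788, 1786, 1767 and 1694 CPM in IGF1 replicates 1 to 4 and 1765, 1704, 1689 and 1720.1 CPM in DsRed replicates 1 to 4. The highest library exceeded the lowest by a factor of 1.06, where that factor was 2.25 for Gfap and 1.78 for Aqp4. The rats lowest in Gfap and Aqp4 were thus not low in S100b, and IGF1 replicate 1 had the highest S100b level of all. Its log2 fold change was 0.032 (SE 0.049, edgeR adjusted p 0.890), and the 95% interval of -0.078 to 0.14 is the narrowest of the 7.

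The sequences before the start sites of 3 genes are printed to set Gfap and Aqp4, which were low in the same 2 rats, beside S100b, which was not. RefSeq lists all 7 member symbols in the rat build GRCr8. Each line gives the 250 bases before the annotated start, 5′ to 3′ on the gene's strand, and for Aqp4 the start farther upstream of the 2 listed. Capitals mark matches, on either strand, to 5 motifs: STAT (TTCNNNGAA), AP-1 (TGANTCA), the NFI half-site (TTGGCA), the CCAAT box (CCAAT) and the TATA box (TATAAA).
Gfap, chr10:88361662-88361911, minus strand: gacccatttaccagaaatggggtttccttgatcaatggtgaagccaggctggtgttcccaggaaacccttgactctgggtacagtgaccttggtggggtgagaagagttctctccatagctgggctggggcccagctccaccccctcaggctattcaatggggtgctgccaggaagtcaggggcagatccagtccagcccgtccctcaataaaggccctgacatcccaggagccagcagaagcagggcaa
Aqp4, chr18:6798843-6799092, minus strand: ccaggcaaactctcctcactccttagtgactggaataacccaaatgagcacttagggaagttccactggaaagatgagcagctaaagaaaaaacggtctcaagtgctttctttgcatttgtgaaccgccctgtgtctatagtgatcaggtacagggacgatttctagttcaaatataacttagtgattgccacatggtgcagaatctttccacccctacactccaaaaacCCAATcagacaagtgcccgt
S100b, chr20:12381082-12381331, minus strand: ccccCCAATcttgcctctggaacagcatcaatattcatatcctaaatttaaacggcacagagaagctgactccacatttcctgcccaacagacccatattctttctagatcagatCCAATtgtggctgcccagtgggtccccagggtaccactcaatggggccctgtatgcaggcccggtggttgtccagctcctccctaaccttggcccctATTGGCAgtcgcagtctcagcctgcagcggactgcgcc

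The Gfap window held none of the 5 motifs, and the Aqp4 window held only a CCAAT box, 20 bases before the start. The S100b window held 3 CCAAT boxes, 1 of which overlaps an NFI half-site that begins 37 bases before the start. At the other Aqp4 start no motif was found. Among the members not printed, Vim held a CCAAT box and a TATA box, Slc1a2 no motif and Slc1a3 only an NFI half-site. Glul held CCAAT boxes, with an NFI half-site at the second start listed. Over all 33469 promoter windows of this length in the table, 34.0% held a CCAAT box and 12.02% an NFI half-site. STAT, AP-1 and TATA box letters were found in 7.67%, 6.34% and 12.9%. As the Gfap window held none, Gfap and Aqp4 could share none of these letter patterns in this window, which says nothing about sites elsewhere.

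The glutamate transporter gene Slc1a2 was the member that differed most between the groups. It had 341, 455, 639 and 607 CPM in IGF1 replicates 1 to 4. It had 672, 644, 687 and 645 CPM in DsRed replicates 1 to 4. Every IGF1 rat lay below every DsRed rat, but the highest IGF1 rat (638.5 CPM) and the lowest DsRed rat (643.7 CPM) were close. Groups that do not overlap, with IGF1 lower, were found in 1.97% of all rows, and in either direction in 4.71%. The means were 510.3 ± 138 CPM and 662 ± 21.1 CPM (SD, n = 4 each), so the spread was also wider among IGF1 rats. That difference in spread was not tested.

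Slc1a2 in the IGF1 group was fitted at 0.771 times its DsRed level, a log2 fold change of -0.38 (SE 0.17, 95% interval -0.75 to -0.0029). This did not pass the test over all rows, with an edgeR adjusted p of 0.743 (unadjusted 0.0486). An exact two-sided permutation test of the 8 libraries gave p = 0.0286, the smallest that 4 against 4 allow. Groups that do not overlap always give this value. The size rested in part on IGF1 replicate 1, without which the log2 fold change was -0.22 (edgeR unadjusted p 0.0495, adjusted p 0.784). Its unadjusted p was no longer under 0.05 in 5 of the 8 fits that left out 1 library: 0.120 without IGF1 replicate 2, and 0.0825, 0.073, 0.094 and 0.0717 without DsRed replicates 1 to 4 (edgeR). Without both libraries numbered 1 the log2 fold change was also -0.22, with an interval of -0.46 to 0.023. Over all alternatives of scaling, filter, test and libraries it stayed between -0.50 and -0.22, with an unadjusted p under 0.05 in 15 of 22. Most of these alternatives refitted the same 8 libraries, so they are not independent of each other. The groups remained apart under each of the 4 other scalings tried.

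A property of the libraries set apart the 2 rats lowest in Slc1a2. The 10 most abundant rows took 16.6% and 16.001% of the gene reads in IGF1 replicates 1 and 2, the 2 libraries with the least Slc1a2. They took 13.6% and 14.3% in IGF1 replicates 3 and 4, and 13.9%, 12.2%, 12.6% and 11.8% in DsRed replicates 1 to 4. The share was thus mostly higher in the IGF1 group, so it cannot be told apart from the vector. At these shares, DsRed replicates 1 to 4 had 672, 644, 687 and 645 CPM of Slc1a2. With scaling that left out the 10 most abundant rows, the log2 fold change of Slc1a2 was -0.37 (edgeR unadjusted p 0.0496, adjusted p 0.740). That setting changes only the scaling of the libraries, so it cannot show what part this share had. The part of this share in the Slc1a2 difference was not tested.

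**Figure D2:**
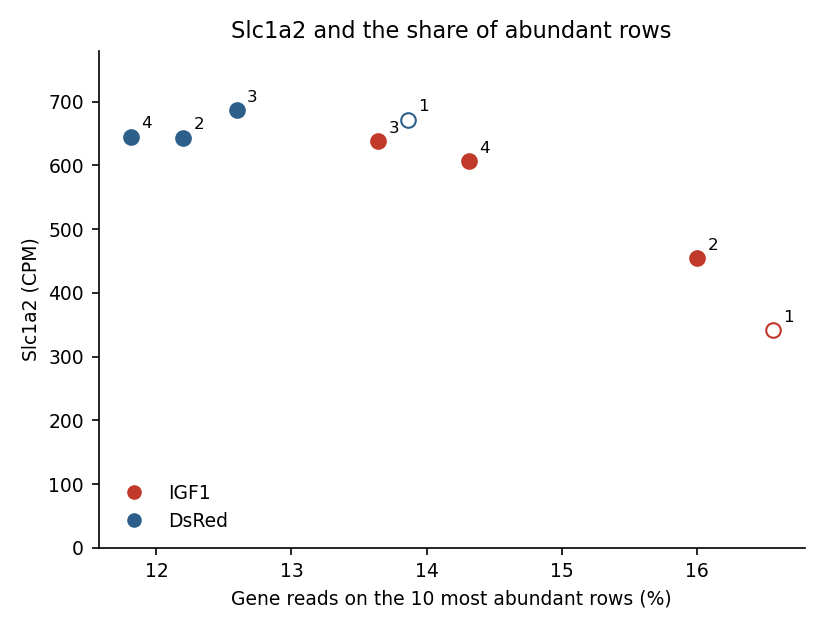
Slc1a2 level (CPM, axis from 0) against the percentage of gene reads that fell on the 10 most abundant rows, 1 point per rat with its replicate number. Open points are replicate 1. IGF1 replicates 1 and 2 combine the lowest Slc1a2 levels, 341 and 455 CPM, with the highest shares, 16.6% and 16.001%.

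For the second glutamate transporter gene, Slc1a3, the groups overlapped. IGF1 replicates 1 to 4 had 996, 933, 1027 and 1026 CPM. DsRed replicates 1 to 4 had 1070.1, 919.8, 1078 and 951 CPM. The 4 IGF1 rats lay inside the range of the DsRed rats. Between the groups the log2 difference was -0.013 (SE 0.068, 95% interval -0.17 to 0.14, edgeR adjusted p 0.974). IGF1 replicate 1, which had the least Slc1a2 of all rats, was at 996 CPM of Slc1a3, close to the group mean of 996 ± 44.1 (SD, n = 4).

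Glul, which acts after glutamate uptake, was also even. Its levels were 1432, 1346, 1360.0 and 1417 CPM in IGF1 replicates 1 to 4 and 1385, 1325, 1438 and 1501 CPM in DsRed replicates 1 to 4. The groups overlapped, with the lowest and the highest rat both in the DsRed group. IGF1 differed from DsRed by -0.024 on the log2 scale (SE 0.057, 95% interval -0.15 to 0.10, edgeR adjusted p 0.939). As ratios of IGF1 to DsRed, the 95% intervals were 0.948 to 1.104 for S100b, 0.892 to 1.101 for Slc1a3 and 0.901 to 1.074 for Glul. They were wider for Vim (0.737 to 1.31), Aqp4 (0.875 to 1.396) and Slc1a2 (0.595 to 0.998).

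**Figure D3:**
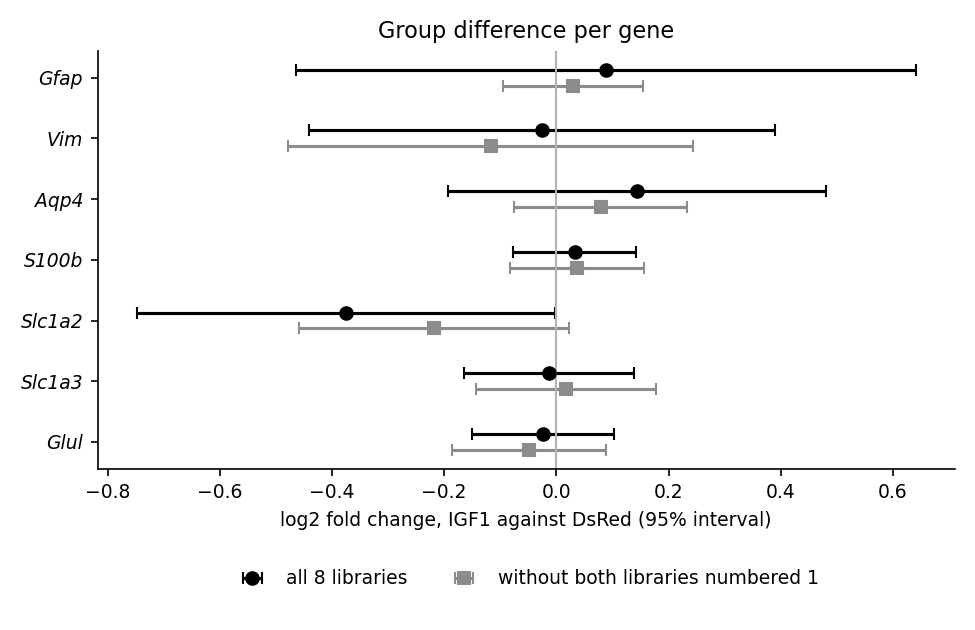
Log2 fold change of each astrocyte gene, IGF1 against DsRed, with its 95% interval from edgeR's quasi-likelihood fit, for all 8 libraries (black) and without both libraries numbered 1 (grey, 3 rats per group). The interval of Gfap narrows from -0.46 to 0.64 to -0.095 to 0.15, and Slc1a2 is the member farthest from 0 in both fits.

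Summed over the 7 genes, astrocyte transcripts made up a similar share of the scaled reads in both groups. The sum was 0.636%, 0.710%, 0.753% and 0.744% in IGF1 replicates 1 to 4. It was 0.625%, 0.709%, 0.762% and 0.740% in DsRed replicates 1 to 4. The ranges nearly coincide, and replicate 1 had the lowest sum of each group.

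The members differed widely in how much they varied between rats of the same group. The SD of log2 CPM within groups had a median of 0.14 over all tested rows. It was 0.47 for Gfap, and 93.8% of all rows varied less. Of the 102 rows within 1 log2 unit of the level of Gfap, all varied less (100%). At the other end, the SD of S100b was 0.032. Only 0.716% of all rows, and 1.12% of the 89 rows near its level, varied less.

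The remaining members lay between these. The SD was 0.33 for Vim, 0.30 for Slc1a2 and 0.27 for Aqp4, above that of 85.4%, 82.5% and 79.2% of all rows. It was 0.095 for Slc1a3 and 0.063 for Glul, above that of 29.4% and 10.4% of rows. Against rows within 1 log2 unit of each gene's level, these shares were higher. They were 98.0% for Vim, 95.6% for Slc1a2 and 93.0% for Aqp4. For Slc1a3 the share was 45.2%, near the middle for its level, and for Glul it was 20.9%. The SD that read counting alone would give was at most 0.033 for any member, that of Vim, and was 0.0083 for Gfap and 0.0076 for S100b. The spread of Gfap was thus far above its counting error, and that of S100b was nearer to it.

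Nearly all of the spread of Gfap came from 2 rats. Without both libraries numbered 1, its SD was 0.041, and 6.42% of all rows varied less. That of Aqp4 was 0.098 (44.5% of rows varied less). Vim remained variable, at 0.30 (88.1%), and so did Slc1a2, at 0.19 (76.1%). The median over all rows was 0.11 in these 6 libraries. Leaving out these 2 rats was chosen with the Gfap values known, so the fall in its SD is a description.

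**Figure D4:**
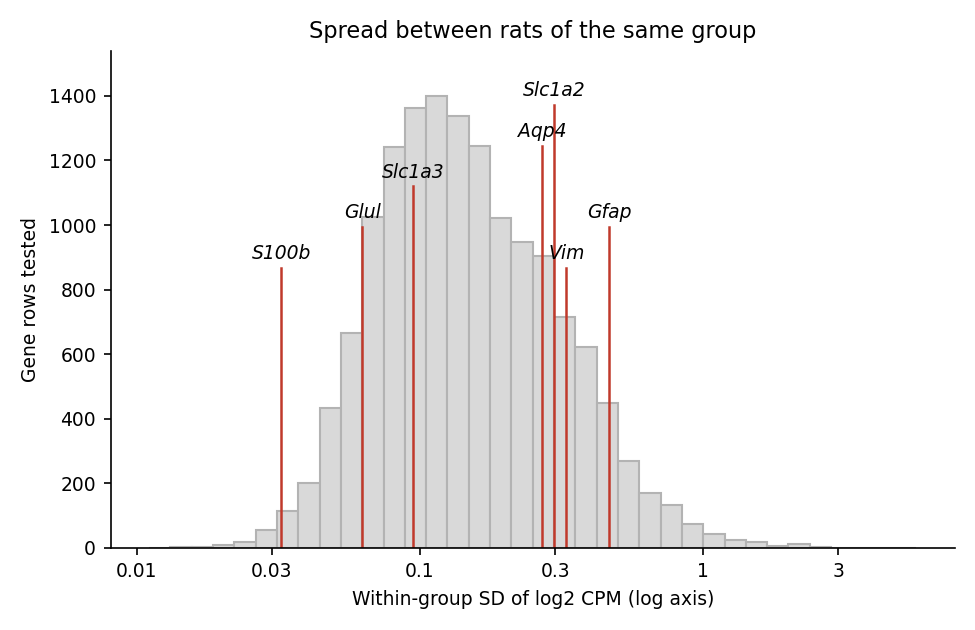
Histogram of the within-group SD of log2 CPM over the 14522 tested gene rows (log axis, in log2 units), with the 7 astrocyte genes marked by lines whose heights carry no meaning. Gfap, at 0.47, lies far to the right, and S100b, at 0.032, near the left end.

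Of the 21 pairs of members, 1 varied together across the 8 rats beyond the adjusted threshold. Gfap and Aqp4 had a Pearson r of 0.948 (exact permutation p 0.00062, adjusted over 21 pairs 0.013) and a Spearman rho of 0.952 (exact permutation p 0.00114, adjusted 0.024; n = 8). Without IGF1 replicate 1 and DsRed replicate 1, the libraries farthest from the Gfap median, r was 0.794 (exact permutation p 0.0736) and rho was 0.886 (exact permutation p 0.0333; n = 6). Their promoter windows shared none of the 5 motifs, but the Gfap window held none, so no gene could have shared one with it. Over the 6 libraries the pair no longer passed the adjusted threshold, with an adjusted exact permutation p of 0.442 for r. The strength of the pooled relation thus rests in part on those 2 rats. After the group means were taken out, r over the 8 libraries was 0.961.

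Gfap with Vim had an r of 0.621 (exact permutation p 0.109, adjusted 0.435) and a rho of 0.548 (exact permutation p 0.171, adjusted 0.686). Without the same 2 rats r was -0.076. Gfap hardly varied among the rats that remained (within-group SD 0.041), so this r cannot show whether the genes vary together. With only IGF1 replicate 1 left out r was 0.628, and with only DsRed replicate 1 left out it was 0.275. The r of Slc1a3 with Gfap and with Aqp4 changed sign when those 2 rats were left out, while rho was positive in both sets, and no value passed the adjustment over the 21 pairs. Its r with Gfap was -0.35 over the 8 libraries (rho 0.333; exact permutation p 0.398 and 0.428, adjusted 0.915 and 0.751) and 0.873 without the same 2 rats (rho 0.943; exact permutation p 0.0181 and 0.0167, adjusted 0.379 and 0.175; n = 6). With Aqp4 its r was -0.18 (rho 0.310; exact permutation p 0.718 and 0.462, adjusted 0.960 and 0.751) and then 0.867 (rho 0.943; exact permutation p 0.0403 and 0.0167, adjusted 0.423 and 0.175; n = 6). Vim with Aqp4 had an r of 0.680 and a rho of 0.667 (exact permutation p 0.061 and 0.0831, adjusted 0.392 and 0.436). Vim with Glul had an r of 0.660 and a rho of 0.690 (exact permutation p 0.0746 and 0.0694, adjusted 0.392 and 0.436). S100b with Slc1a2 had an r of -0.65 and a rho of -0.67 (exact permutation p 0.0551 and 0.0831, adjusted 0.392 and 0.436). When the 2 libraries most distant from the first gene's median were dropped, r for these 3 pairs was 0.574, 0.530 and -0.65. With libraries scaled by total counts only, r of S100b with Slc1a2 was -0.30. The transporters Slc1a2 and Slc1a3 had an r of 0.296 and a rho of 0.500 (exact permutation p 0.485 and 0.216, adjusted 0.915 and 0.686), and r was 0.397 without IGF1 replicates 1 and 2.

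Among all tested rows, Aqp4 ranked 20th by its r with Gfap over the 8 libraries, above 99.9% of rows. Among rows averaging 1 or more on the log2 CPM scale, the 2 most like Gfap were ENSRNOG00000007726 (r = 0.992) and ENSRNOG00000008375 (r = 0.989). Without the same 2 rats their r with Gfap was 0.678 and 0.491. No symbol is paired with these IDs in the files, and the r values describe these libraries only.

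**Figure D5:**
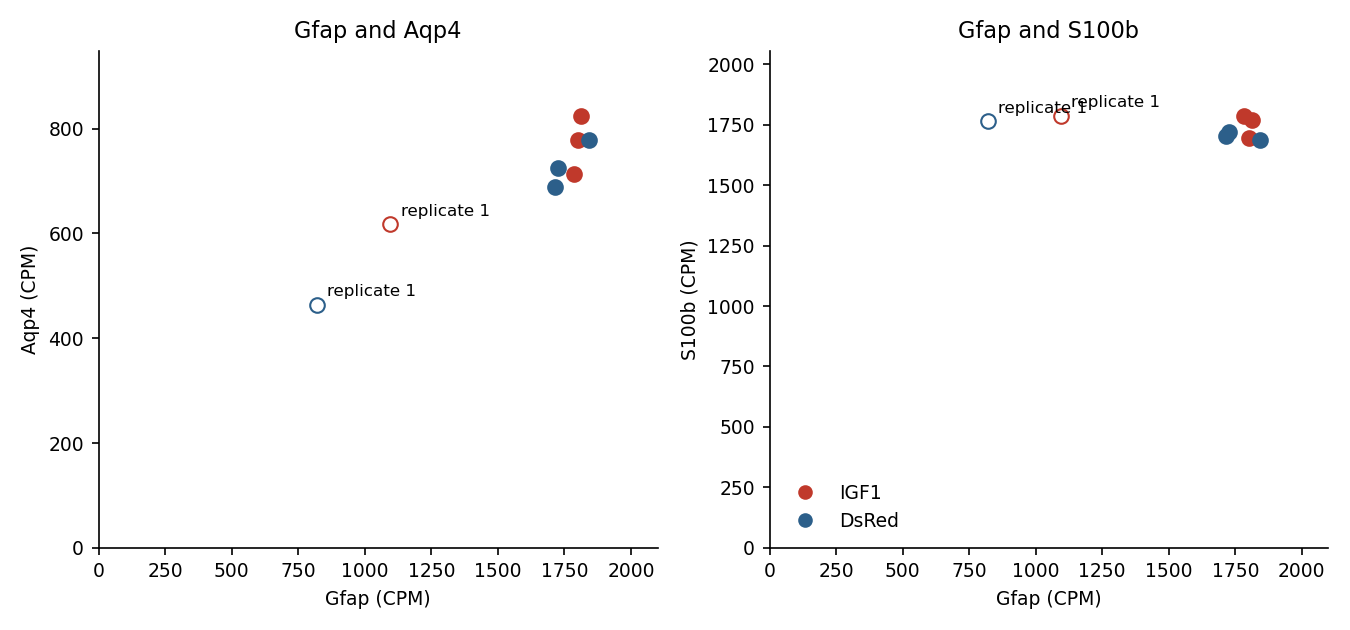
Aqp4 (left) and S100b (right) against Gfap, all in CPM with axes from 0, 1 point per rat. Open points are replicate 1 of each group. The 2 rats with the least Gfap, 820.0 and 1095 CPM, also have the least Aqp4, 464 and 618 CPM, while their S100b, 1765 and 1788 CPM, is not low.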

How the data were processed

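RNA from the right hippocampus of 8 rats was sequenced (TruSeq libraries, per the labels' protocols). Tools named without roles in the submitters' processing notes are STAR, HTSeq, edgeR and CASAVA 1.8.2; genome build, annotation and strandedness: not given in the sources used here. The authors deposited whole-number read counts per Ensembl ID with 3 summary rows, which were left out. The second table the authors deposited holds a linear normalised signal, although it is named for log2 CPM, and served only for an alternative on log2(value + 1).

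Sample titles gave the groups and replicate numbers. Counts were analysed in R 4.3.3 with edgeR 4.0.16: filterByExpr (minimum count 10, minimum total 15), TMM, then glmQLFit and glmQLFTest for group alone (two-sided, Benjamini-Hochberg over all 14522 rows). Standard errors are the fold change over the root of F. Log2 CPM used a prior count of 2. Correlations used exact permutation. Alternatives included DESeq2 1.42.0, limma 3.58.1, other scalings and filters, a replicate block and leaving out each library. The test was checked on simulated data.

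Member symbols came with the choice of the members. The rule for the members uses no measured value, but members and lists were proposed with earlier results of these data known. The rule for named genes took all members and the rows most like them, limited to 2 IDs because 0 Ensembl IDs are in the RefSeq table; lists of other astrocyte genes and of other cell types' markers, fixed by symbol, were not analysed here.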

Additional observations from a re-analysis of the deposited data

Results flagged for a closer look

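The level of each of the 7 genes and their sum were searched in both groups for a rat far from the other 3, in 16 sets of 4 libraries, and 2 were found. Chance gives about 1 in 20 such sets, and the sets share libraries. Gfap in IGF1 replicate 1, at 1095 CPM, had a gap to the nearest rat of its group that took up 0.961 of the group's range. Gfap in DsRed replicate 1, at 820.0 CPM, had a gap of 0.874 of the range. In Aqp4 the same 2 rats were lowest, with gaps of 0.463 and 0.710, under the limit of 0.829.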

How the results depend on the processing

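With 4 rats per group, the 95% intervals allow Gfap to differ by 0.725 to 1.56 times. None of the 7 genes passed an adjusted p of 0.05 under any alternative run, and leaving out 1 library gave 0 to 0. Over all rows, calls numbered 12 with DESeq2, 11 by the likelihood ratio test of edgeR and 0 to 1 with 1 library left out. The cause was not tested. Aqp4, S100b and Slc1a2 kept their sign in all 22 alternatives. With 1 library left out, log2 fold changes ran from -0.12 to 0.24 for Gfap, -0.16 to 0.15 for Vim, -0.053 to 0.022 for Slc1a3 and -0.053 to 0.0066 for Glul. Slc1a3 was at 0.017 without both libraries numbered 1, a setting chosen after the data were seen. Pairs past the threshold numbered 0 without the 2 libraries farthest from the median (r was then -0.076 for Gfap with Vim, 0.873 for Gfap with Slc1a3 and 0.867 for Aqp4 with Slc1a3), and 0 to 1 with 1 library left out, where fewer libraries raise the smallest possible p. The r of Slc1a3 then ran from -0.57 to 0.063 with Gfap and from -0.38 to 0.514 with Aqp4, the highest without DsRed replicate 1.

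Under a replicate block by replicate number, 0 members and 0 rows passed, so no call changed. The log2 fold change was then 0.13 for Gfap, 0.16 for Aqp4 and -0.42 for Slc1a2. Their edgeR unadjusted p fell to 0.179, 0.0678 and 0.026, from 0.729, 0.363 and 0.0486 without the block. The low Gfap and Aqp4 rats of both groups bear the same number, 1. Libraries sharing a number had deviations correlated at 0.055, 0.126, 0.244 and 0.134, and libraries with unlike numbers were not compared. As the labels name separate rats, no pairing was assumed.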
